A study of Mus musculus with 18 samples.

Results

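The contractile unit of the heart muscle cell, the sarcomere, is built from thin filaments of actin carrying tropomyosin and the troponin complex, thick filaments of myosin carrying myosin-binding protein C, and titin, which spans from the Z-disc to the M-band. The Z-disc anchors thin filaments of neighbouring sarcomeres through alpha-actinin and a set of adaptor proteins, and the M-band links thick filaments through the myomesins. Many of these proteins come in paralogs used by cardiac, slow skeletal, fast skeletal or non-muscle cells. Re-expression of fetal or skeletal paralogs is a known feature of the stressed ventricle.

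The 39 genes described here were a fixed list of names covering the thin and thick filaments, titin, the Z-disc, the M-band and the ligases that turn them over. All 39 were found among the 34150 genes of the deposited files. Total RNA from mouse heart, after removal of ribosomal RNA, was sequenced in 6 libraries of control mice, 6 of mice labelled MI and 6 of mice labelled HXP. By the title of the study, HXP was given in a model of acute myocardial infarction (MI). Strain, age, the part of the heart taken, how the control mice were handled, what HXP stands for, its dose and all times are not stated in the labels, and neither is whether every HXP mouse had an infarct. Libraries are named by group and replicate number, and nothing states that each comes from a separate mouse, so that the p-values below measure only the spread between these libraries. MI 1 and MI 2 were the closest pair within any group, with a chi-square per gene of 30.4 over recovered reads against 63.1 for the next closest pair and 123.6 for the next MI pair. A value near 1 is what sampling noise alone gives, so that they differed by more than that and were kept as separate libraries; the members' calls with the pair averaged are given below. All values are FPKM, which counts fragments per length of exon and per depth of the library, and are therefore levels per transcript length.

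Depth was 75.8 to 81.1 M reads per library, calculated from the steps of its values. The mitochondrial genes took 29.9% to 34.7% of them in the control libraries, 16.6% to 27.4% in the MI and 16.6% to 36.8% in the HXP libraries. The summed level of 10 cardiomyocyte markers outside the 39 genes was 10660 to 12409 FPKM in control, 6714 to 11628 in MI, and 5992 to 13293 FPKM in HXP. The summed level of 9 fibroblast and matrix markers was 127 to 179 FPKM in control, 438 to 2859 in MI, and 91.0 to 2632 FPKM in HXP. All 9 of these were called higher in MI, beside 40.1% of all genes tested. In bulk tissue, fewer cells of a type and less RNA per cell cannot be told apart. A few libraries stood apart. MI 4 held 15 skeletal muscle markers at a sum of 138 FPKM, while the other 5 MI libraries reached 16.5, control 7.52 and HXP 24.8. MI 5 held 6 lung epithelial markers at a sum of 1148 FPKM, while the control libraries reached 0.0820. HXP 5 and HXP 6 showed a trend with GC content that is described further below. Results that rest on these libraries are given with and without them.

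Promoter windows of the RefSeq annotation (GRCm38.p6, mostly upstream of a transcript start) were found for 30 of the 39 genes, in 40 windows. The windows of 4 genes that differed between MI and control are shown as examples. Pdlim3 (chr8:45885237-45885536, plus strand) and Synpo2l (chr14:20668305-20668604, minus strand) were higher. Tmod4 (chr3:95124264-95124563, plus strand) and Tnni3 (chr7:4522479-4522778, minus strand) were lower. All are written 5′ to 3′ on the strand of the gene, and capitals mark matches to the motifs searched.
Pdlim3: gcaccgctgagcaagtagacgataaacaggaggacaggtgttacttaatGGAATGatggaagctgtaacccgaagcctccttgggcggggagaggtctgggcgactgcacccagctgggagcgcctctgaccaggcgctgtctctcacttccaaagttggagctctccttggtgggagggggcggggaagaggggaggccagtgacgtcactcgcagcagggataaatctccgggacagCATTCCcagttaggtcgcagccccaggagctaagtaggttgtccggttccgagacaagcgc
Synpo2l: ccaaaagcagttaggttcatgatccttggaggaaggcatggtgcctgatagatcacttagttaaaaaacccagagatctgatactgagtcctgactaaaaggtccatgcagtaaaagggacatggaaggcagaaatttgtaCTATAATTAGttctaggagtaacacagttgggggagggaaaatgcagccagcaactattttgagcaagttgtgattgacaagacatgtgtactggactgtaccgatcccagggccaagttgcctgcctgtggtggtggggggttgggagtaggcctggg
Tmod4: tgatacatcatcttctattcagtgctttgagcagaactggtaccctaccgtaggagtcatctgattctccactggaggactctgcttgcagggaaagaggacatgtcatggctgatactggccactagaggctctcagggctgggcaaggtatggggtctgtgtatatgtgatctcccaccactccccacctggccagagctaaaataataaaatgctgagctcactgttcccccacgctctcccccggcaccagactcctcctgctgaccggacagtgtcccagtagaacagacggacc
Tnni3: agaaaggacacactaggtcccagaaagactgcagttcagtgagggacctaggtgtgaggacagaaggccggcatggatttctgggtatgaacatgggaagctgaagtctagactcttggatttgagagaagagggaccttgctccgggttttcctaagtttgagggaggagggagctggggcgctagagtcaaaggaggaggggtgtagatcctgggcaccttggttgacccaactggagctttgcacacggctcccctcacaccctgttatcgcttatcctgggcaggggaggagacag

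The search covered both strands for the core letters bound by MEF2 factors (CTA and TAG with any 4 bases between), CATTCC bound by TEAD factors, AGATAA bound by GATA factors, and the CArG box bound by serum response factor. The MEF2 core was found in 22.5% of the 40 windows and in 3.69% of all 32851 windows. The genes holding it were Des, Flnc, Ldb3, Mybpc3, Myoz2, Obsl1, Synpo2l and Ttn. CATTCC was found in 27.5% of the 40 windows and 14.7% of all, the CArG box in 10% and 1.63%, and AGATAA in 12.5% and 11.2%. Of the Synpo2l windows, the one shown held the MEF2 core and the other (chr14:20664525-20664824, minus strand) held none of the letters, and the Pdlim3 window held CATTCC on each strand. The Tmod4 and Tnni3 windows held none of these letters. Neither did the windows of Tpm2, Tpm4, Myom3 and Pdlim5, which were called higher in MI. Of the Tpm3 windows, 1 held AGATAA and the other none, and Lmod3 had no window. A link between these letters and the direction of change was not tested. These matches describe the letters only, and windows of 1 gene can overlap.

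MI was compared with control to ask which sarcomere genes differ in the infarcted heart. Of the 39 genes, 36 passed the filter of a mean of 0.5 FPKM over the 18 libraries, and Tnni1, Neb and Myoz1 did not. Myom3 passed it only through the level of its MI libraries. By limma with Benjamini-Hochberg adjustment over all 13710 genes tested, 7 were called higher (Pdlim3, Tpm3, Tpm2, Synpo2l, Tpm4, Pdlim5 and Myom3) and 3 lower (Tmod4, Tnni3 and Lmod3), at an adjusted p below 0.05. Of all genes tested, 43.3% were called in this comparison, 40.1% higher and 3.21% lower, so that the 19.4% of members called higher lies below the background and the 8.33% called lower above it. The median log2 fold change of the 36 members was -0.07, against 0.27 over all genes tested. That general shift depended on scaling: with median-ratio scaling the median of all genes was -0.01 and that of the members -0.46.

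The split of the calls moved with the scaling. Quantile normalization gave 5 higher and 5 lower, scaling to non-mitochondrial FPKM gave 5 and 6, median-ratio scaling 3 and 10, and a correction for GC content, chosen after seeing the data, 6 and 9. In that order, the median log2 fold change of all genes was -0.07, 0.10, -0.01 and 0.01. That of the members was -0.25, -0.31, -0.46 and -0.34. The share of all genes called under each is not given here, so these splits are not set against a background. Pdlim3, Synpo2l and Tpm3 were called higher, and Tmod4, Tnni3 and Lmod3 lower, under the deposited scaling and each of these 4. Tcap and the ligase Fbxo32 were called lower under the 4 alternatives and not under the deposited scaling. Cryab was called lower under 3 of the 4, Ldb3, Tmod1 and Trim63 under median-ratio scaling and GC correction, and Nebl under median-ratio scaling. With MI 1 and MI 2 averaged and counted as 1 library, 8 members were called, 7 higher and 1 lower, and the same split was found with the run of library numbers as a covariate. In both fits Tmod4 was called lower (limma adjusted p = 0.032 in each), while Tnni3 (0.057 with the pair averaged, 0.05003 with the run) and Lmod3 (0.075 and 0.072) were not. Without MI 4 and MI 5 together no member was called, and neither was any of the 13710 genes, of which 5998 had an unadjusted p below 0.05 by limma. The log2 fold changes of the 10 genes then ran from -0.84 to 1.55 with their signs kept, at limma adjusted p from 0.055 to 0.102. The file names hold library numbers, which were split here into 3 runs wherever neighbouring numbers lay far apart. The labels do not say what these numbers mean. Within the 1 run that held several libraries of both groups (3 control and 5 MI) all 10 called members kept their sign, with limma adjusted p from 0.0523 to 0.140.

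**Figure D1:**
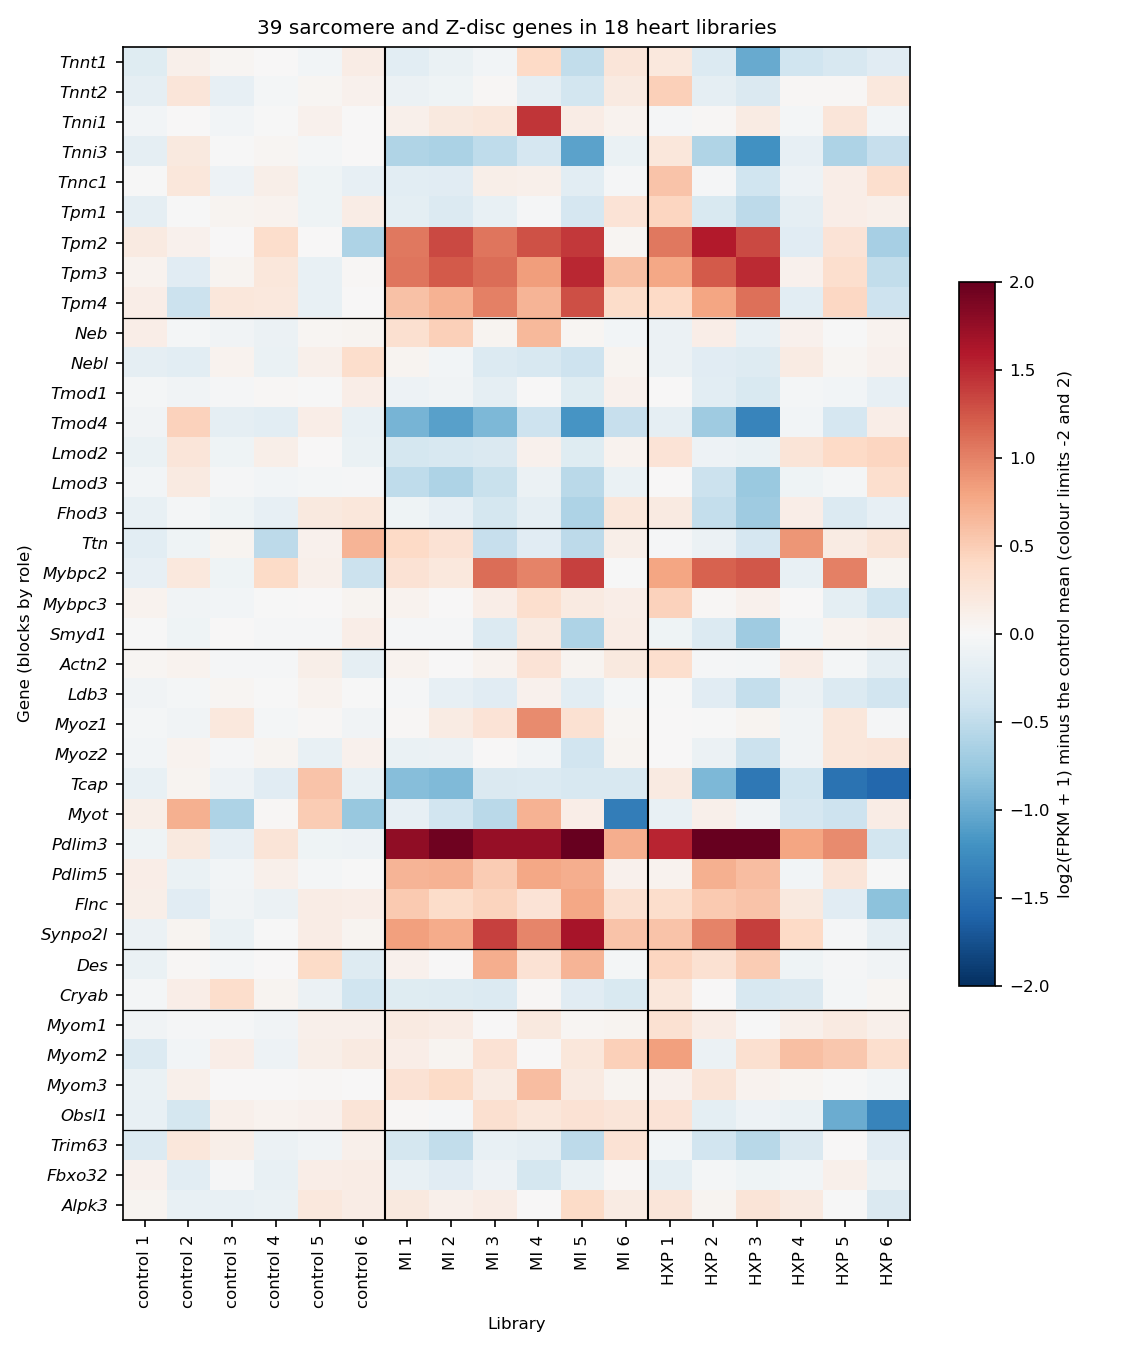
Level of each of the 39 genes (vertical axis, blocks by role) in each of the 18 libraries (horizontal axis), as log2(FPKM + 1) minus the mean of the 6 control libraries, with colour limits of -2 and 2. Pdlim3, Synpo2l and the tropomyosins Tpm2, Tpm3 and Tpm4 are red across MI 1 to MI 5 and across HXP 1 to HXP 3, Tmod4 is blue in MI 1 to MI 3, MI 5, HXP 2 and HXP 3, and Tcap and Obsl1 are blue in HXP 5 and HXP 6.

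Among the Z-disc genes, the largest change was in Pdlim3 (ENSMUSG00000031636, chr8:45885461-45919548, GRCm38), which encodes an actinin-associated PDZ and LIM domain protein. It ranged from 1.60 to 2.46 FPKM in control with a median of 1.73. In MI it ranged from 3.79 to 13.4 FPKM with a median of 8.86, and in HXP from 1.25 to 16.7 with a median of 5.95. Every MI library lay above every control library, and so did 5 of 6 HXP libraries, HXP 6 being the exception. The log2 fold change in MI was 1.70 (limma SE 0.37, adjusted p = 0.014), which is 1.44 above the median of all genes. It was 1.55 without MI 4 and MI 5 (limma adjusted p = 0.055).

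Synpo2l (ENSMUSG00000039376, chr14:20658946-20668354), an actin-binding protein of the Z-disc enriched in heart, ranged from 22.8 to 27.9 FPKM in control with a median of 25.6. It ranged from 37.6 to 80.7 FPKM in MI with a median of 47.7, and from 22.1 to 67.4 in HXP with a median of 35.5. MI and control did not overlap, and 4 of 6 HXP libraries lay above every control. The log2 fold change in MI was 1.02 (limma SE 0.23, adjusted p = 0.014). Pdlim5 (ENSMUSG00000028273, chr3:142239590-142395696), a paralog of Pdlim3 that also binds alpha-actinin, ranged from 25.8 to 31.1 FPKM in control, 29.9 to 48.8 in MI, and 27.2 to 47.0 FPKM in HXP, with medians of 27.7, 46.1 and 31.7. MI 6 alone fell within the control range, at 29.9 FPKM. Its log2 fold change in MI was 0.58 (limma SE 0.14, adjusted p = 0.014). The Pdlim5 call was lost after quantile normalization (limma adjusted p = 0.066), scaling to non-mitochondrial FPKM (0.051) and median-ratio scaling (0.180).

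The other Z-disc genes tested were not called in MI at the deposited scaling. Flnc, the actin crosslinker filamin C, ranged from 25.0 to 32.8 FPKM in control, 35.7 to 50.7 in MI, and 16.3 to 44.1 FPKM in HXP. All 6 MI libraries lay above all control libraries, with a log2 fold change of 0.45 (limma SE 0.19, adjusted p = 0.059). Tcap, which caps the titin ends at the Z-disc, ranged from 873 to 1508 FPKM in control, 552 to 843 in MI, and 343 to 1148 FPKM in HXP, with medians of 933, 816 and 464. All 6 MI libraries lay below all control libraries, with a log2 fold change of -0.49 (limma SE 0.26, adjusted p = 0.122). Over the 36 members tested, 5 did not overlap between MI and control with MI above (Tpm3, Tpm4, Pdlim3, Flnc and Synpo2l) and 3 with MI below (Tmod4, Lmod3 and Tcap); of all genes tested, 27.9% and 1.39% did so.

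The principal Z-disc crosslinker Actn2 had medians of 380 FPKM in control, 396 in MI and 370 in HXP. Ldb3, the alpha-actinin adaptor also called Cypher, had medians of 105, 98.0 and 88.1 FPKM, and Myoz2, the calsarcin of cardiac and slow muscle, of 193, 180 and 187 FPKM. Their ranges overlapped, and none was called by limma at the deposited scaling (adjusted p of 0.306, 0.350 and 0.418 in MI against control). Ldb3 was called lower in MI after median-ratio scaling (log2 fold change -0.49, limma adjusted p = 0.024) and GC correction (-0.40, limma adjusted p = 0.027). Myot, the actin-bundling myotilin, ranged from 6.60 to 20.1 FPKM within control alone, from 3.92 to 19.8 in MI and from 8.64 to 13.2 in HXP. It had the widest spread of any tested member in control and in MI. Myoz1, the calsarcin of fast skeletal muscle, lay below the filter, at 0.0275 to 0.254 FPKM in control and 0.104 to 1.08 in MI. Its highest value, 1.08 FPKM, was in MI 4, the library with skeletal muscle markers.

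**Figure D2:**
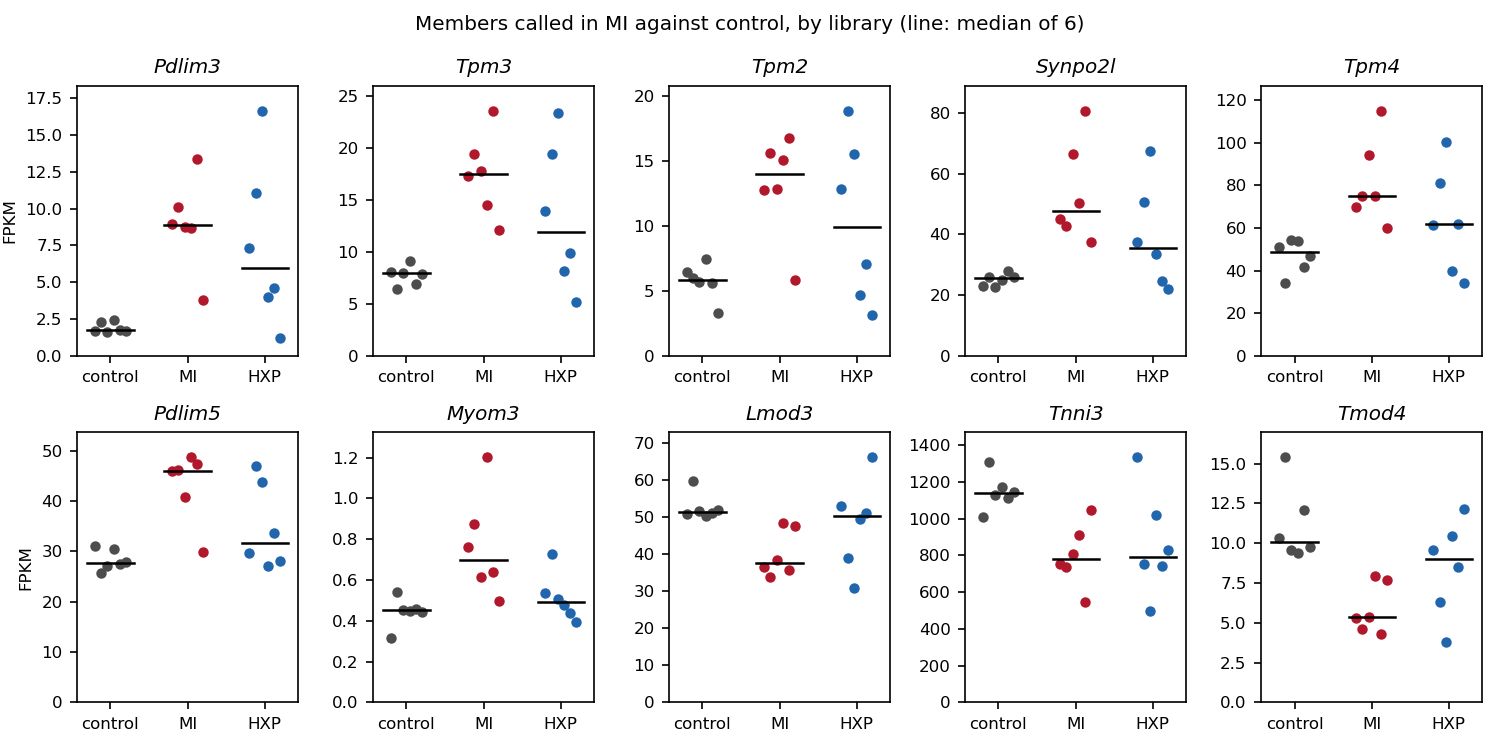
FPKM (vertical axes, from 0) of the 10 genes called by limma in MI against control in each library, by group, with a line at the median of 6. The first 7 panels show genes called higher and the last 3 genes called lower; MI 6 is the MI library nearest to the control range in Pdlim3, Tpm2 and Pdlim5, the HXP libraries span both ranges, and Myom3 changes sign after quantile normalization and GC correction.

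Among the troponins and tropomyosins, all 3 minor tropomyosin genes were called higher in MI while Tpm1, the tropomyosin of adult cardiac thin filaments, was not called. Tpm3 (ENSMUSG00000027940, chr3:90072649-90100902), which encodes slow skeletal and non-muscle tropomyosins, ranged from 6.41 to 9.15 FPKM in control, 12.1 to 23.6 in MI, and 5.14 to 23.4 FPKM in HXP, with medians of 7.92, 17.5 and 11.9. MI and control did not overlap, and the log2 fold change was 1.06 (limma SE 0.26, adjusted p = 0.014). Tpm2 (ENSMUSG00000028464, chr4:43514711-43523765), the beta-tropomyosin of skeletal and smooth muscle, ranged from 3.34 to 7.48 FPKM in control, 5.82 to 16.8 in MI, and 3.19 to 18.9 FPKM in HXP, with medians of 5.85, 14.01 and 9.97. MI 6, at 5.82 FPKM, lay within the control range, and the log2 fold change was 1.03 (limma SE 0.34, adjusted p = 0.026). The Tpm2 call was lost when control 6, MI 2 or MI 5 was left out (highest limma adjusted p = 0.061) and after median-ratio scaling (0.058).

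Tpm4 (ENSMUSG00000031799, chr8:72134975-72153142), a tropomyosin of non-muscle cells, ranged from 34.0 to 54.2 FPKM in control, 60.1 to 115 in MI, and 34.3 to 100.4 FPKM in HXP, with medians of 48.9, 75.2 and 61.6. MI and control did not overlap, and the log2 fold change was 0.77 (limma SE 0.23, adjusted p = 0.018; 0.053 after median-ratio scaling). Tpm1 had medians of 891 FPKM in control, 782 in MI and 860 in HXP, with overlapping ranges and a log2 fold change of -0.12 (limma SE 0.14, adjusted p = 0.503). The values are per gene, so that muscle and non-muscle transcripts of 1 tropomyosin gene are summed. The fibroblast and matrix markers given above were higher in the same MI libraries. Of 7 smooth muscle markers, 4 were called higher in MI (57.1%, beside 40.1% of all genes tested). Their summed level was 216 to 271 FPKM in control, 272 to 456 in MI, and 183 to 475 FPKM in HXP, and none of the 7 was at 0 in all libraries of a group. The part of both marker lists in the tropomyosin values was not tested.

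Tnni3 (ENSMUSG00000035458, chr7:4518305-4524229), the cardiac inhibitory troponin, ranged from 1011 to 1309 FPKM in control, 547 to 1047 in MI, and 496 to 1336 FPKM in HXP, with medians of 1137, 780 and 791. MI 6 alone of the MI libraries, at 1047 FPKM, lay within the control range. The log2 fold change was -0.54 (limma SE 0.19, adjusted p = 0.032), which is -0.81 relative to the median of all genes. The call was lost when any of control 2, control 4, MI 1, MI 2, MI 3 or MI 5 was left out (highest limma adjusted p = 0.084). Tnni3 shares 86 exonic bases with Dnaaf3, whose reads cannot be assigned there. The summed level of the 10 cardiomyocyte markers had a lower range in MI, as given above. Of these markers, 3 of 10 were called lower, beside 3.21% of all genes tested, and none was at 0 in all libraries of a group. Their part in the Tnni3 value was not tested. Tnnt2, the cardiac tropomyosin-binding troponin, and Tnnc1, the calcium-binding troponin, overlapped between all groups and were not called, with medians of 597 and 1227 FPKM in control, 553 and 1169 in MI, and 604 and 1312 in HXP.

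The slow skeletal troponins were rare. Tnnt1, the slow skeletal counterpart of Tnnt2, had medians of 4.24 FPKM in control, 3.84 in MI and 3.21 in HXP. Tnni1, the slow skeletal and fetal inhibitory troponin, was listed at 0 in 1 or more libraries of control and of HXP and reached 0.0995 FPKM in control, 0.218 in MI apart from MI 4, and 0.222 in HXP. In MI 4 it stood at 1.79 FPKM, from 489 recovered reads. With no filter on low values Tnni1 was not called in MI (limma adjusted p = 0.159).

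Among genes that set thin filament length, Tmod4 and Lmod3 were called lower in MI and none higher. Tmod4 (ENSMUSG00000005628, chr3:95124476-95129209), a pointed-end cap known from skeletal muscle, ranged from 9.36 to 15.4 FPKM in control, 4.28 to 7.97 in MI, and 3.77 to 12.1 FPKM in HXP, with medians of 10.1, 5.34 and 9.04. MI and control did not overlap, and 3 of 6 HXP libraries lay below every control. The log2 fold change in MI was -0.83 (limma SE 0.21, adjusted p = 0.015), or -1.10 relative to the median of all genes. Lmod3 (ENSMUSG00000044086, chr6:97238534-97252759), a leiomodin that nucleates actin filaments, ranged from 50.3 to 59.9 FPKM in control, 33.9 to 48.4 in MI, and 30.9 to 66.2 FPKM in HXP, with medians of 51.4, 37.5 and 50.3. Its MI and control libraries did not overlap either, and the log2 fold change in MI was -0.39 (limma SE 0.14, adjusted p = 0.038). This was the call nearest to the threshold: it held in 8 of the 18 fits that left out 1 library and was lost without any 1 control library or without MI 1, MI 2, MI 3 or MI 5, with limma adjusted p of up to 0.083.

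Their paralogs Tmod1, the main cardiac tropomodulin, and Lmod2, the cardiac leiomodin, had medians of 74.5 and 280 FPKM in control and 71.1 and 239 in MI, with overlapping ranges, and were not called at the deposited scaling (limma adjusted p of 0.370 and 0.236). Tmod1 was called lower after median-ratio scaling (log2 fold change -0.48, limma adjusted p = 0.030) and GC correction (-0.37, limma adjusted p = 0.034). Tmod1 shares 1287 of its 3946 exonic bases with Tstd2 on the opposite strand, whose reads cannot be told apart without strand. Nebl, the cardiac nebulette, had medians of 19.5 FPKM in control and 17.8 in MI, and the formin Fhod3 of 46.5 and 43.0, and neither was called at the deposited scaling. Median-ratio scaling moved the log2 fold change of Nebl from -0.16 to -0.54, where it was called lower (limma adjusted p = 0.036). Neb, the giant nebulin of skeletal muscle, reached 0.380 FPKM in control, 0.381 in HXP and 0.972 FPKM in MI 4.

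Titin, the thick filament and the desmin filament held no called member in MI at the deposited scaling. Ttn ranged from 19.4 to 45.9 FPKM in control, 19.3 to 37.6 in MI, and 22.2 to 53.1 FPKM in HXP, with a log2 fold change in MI of -0.07 (limma SE 0.22, adjusted p = 0.805). Mybpc3, the cardiac myosin-binding protein C, had medians of 740 FPKM in control, 812 in MI and 747 in HXP. Mybpc2, its fast skeletal paralog, had medians of 3.53, 6.23 and 7.37 FPKM, with a log2 fold change in MI of 0.66 (limma SE 0.27, adjusted p = 0.056). Smyd1, a methyltransferase needed for myosin assembly, had medians of 103, 102 and 98.8 FPKM. Des, the intermediate filament desmin, and its chaperone Cryab had medians of 329 and 337 FPKM in control, 380 and 282 in MI, and 368 and 331 in HXP, and neither was called at the deposited scaling. Cryab was called lower in MI after scaling to non-mitochondrial FPKM (log2 fold change -0.45, limma adjusted p = 0.034), median-ratio scaling (-0.61, limma adjusted p = 0.021) and GC correction (-0.52, limma adjusted p = 0.023). Cryab shares 252 exonic bases with Hspb2 on the opposite strand.

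In the M-band, Myom3 (ENSMUSG00000037139, chr4:135759715-135815564), the rarest of the myomesins here, was called higher in MI, although its direction reversed after quantile normalization (log2 fold change -0.020) and after GC correction (-0.028). It ranged from 0.317 to 0.539 FPKM in control, 0.497 to 1.203 in MI, and 0.395 to 0.725 FPKM in HXP, from 147 to 552 recovered reads per library, with medians of 0.451, 0.700 and 0.493. The highest value was that of MI 4. The mean of Myom3 was 0.444 FPKM in control, 0.765 in MI and 0.513 in HXP. It thus passed the filter of 0.5 FPKM only through MI, the group in which it was called higher. The log2 fold change was 0.28 (limma SE 0.09, adjusted p = 0.022), which is 0.01 above the median of all genes, and 0.21 without MI 4 (limma adjusted p = 0.036). The main myomesins were not called. Myom1 had medians of 216 FPKM in control, 237 in MI and 242 in HXP, and Myom2 of 143, 158 and 189 FPKM. Obsl1, which bridges titin and myomesin, had medians of 9.43, 10.6 and 7.85 FPKM.

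The ubiquitin ligases of muscle wasting and the M-band-associated kinase Alpk3 were not called at the deposited scaling either. Trim63 (MuRF1) had medians of 50.4 FPKM in control, 41.4 in MI and 41.5 in HXP, and Fbxo32 (atrogin-1) of 27.2, 23.9 and 25.0 FPKM. Alpk3 had medians of 16.8, 19.4 and 18.9 FPKM. In MI against control the limma adjusted p of these genes lay between 0.130 and 0.168. Fbxo32 was called lower under all 4 other scalings, at limma adjusted p of 0.014 (median-ratio), 0.016 (GC correction), 0.022 (quantile) and 0.030 (non-mitochondrial). Trim63 was called lower after median-ratio scaling (limma adjusted p = 0.032) and GC correction (0.037).

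Among 57 other sarcomere genes taken as a second list, 50 were tested and 16 were called higher and none lower in MI, which is 32% called higher beside 40.1% of all genes. Median-ratio scaling turned this split to 6 higher and 11 lower, non-mitochondrial scaling to 8 higher and 7 lower, and quantile normalization to 5 higher and 6 lower. The share of all genes called under these scalings is not given here. The first 6 in order of p were Myh7, the slow beta-myosin heavy chain (log2 fold change 2.17), the Z-disc adaptor Pdlim1 (0.68), the titin-binding stress protein Ankrd1 (1.38), the chaperone Hsp90aa1 (0.76), Filip1l (0.77) and the widely expressed tropomodulin Tmod3 (0.54), each with a limma adjusted p between 0.014 and 0.015. The median log2 fold change was 0.19 over the 50 genes, against 0.27 over all genes tested. With MI 5 left out, 9 were called.

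**Figure D3:**
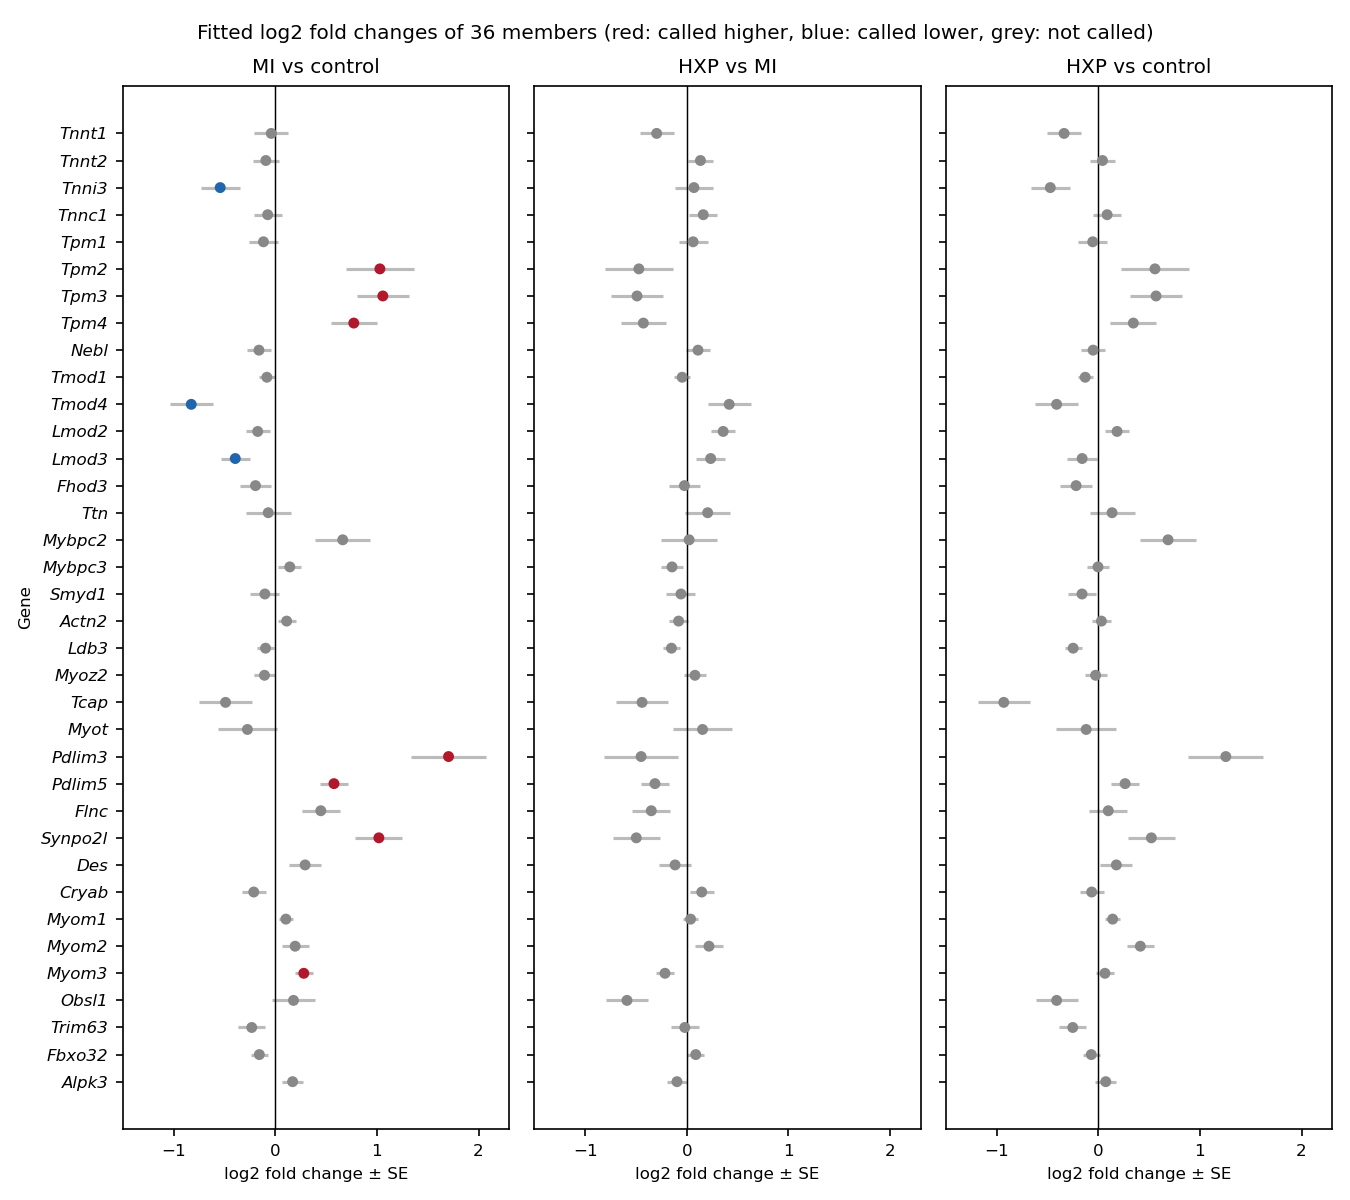
Fitted log2 fold change of the 36 tested members (points) with its standard error (bars) in MI against control, HXP against MI and HXP against control. Red and blue mark the 7 members called higher and the 3 called lower in MI against control by limma; no member is coloured in either HXP panel, and the sign of Myom3 in MI against control changes after quantile normalization and GC correction.

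Ratios of paralogs within each library do not depend on the scaling of the library. For 14 pairs the mean log2 ratio was compared between groups by a two-sided exact permutation test over 924 regroupings, whose smallest possible p is 0.00216, with Benjamini-Hochberg adjustment over the 42 tests. Between MI and control, 8 of 14 ratios passed. As a share of Tpm1, Tpm3 stood at a median of 0.854% in control, 2.24% in MI and 1.11% in HXP, and the MI difference in the log2 ratio was 1.27 (exact adjusted p = 0.023). Tpm2 relative to Tpm1 also differed by 1.27 (exact adjusted p = 0.0496), and Tpm4 relative to Tpm1 by 0.90 (exact adjusted p = 0.036). The Tpm2 ratio lost its call when control 6 or any 1 of MI 1 to MI 5 was left out (exact adjusted p of up to 0.091), and the Tpm4 ratio without MI 3 or MI 5 (up to 0.055).

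Pdlim3 stood at a median of 6.22% of Pdlim5 in control, 20.5% in MI and 19.1% in HXP, a difference in MI of 1.55 in the log2 ratio (exact adjusted p = 0.023). Tmod4 stood at 13.5% of Tmod1 in control, 7.79% in MI and 12.2% in HXP, and the ratio fell by 0.85 on the log2 scale in MI (exact adjusted p = 0.023). Lmod3 stood at 18.4% of Lmod2 in control, 15.8% in MI and 14.5% in HXP, and the ratio fell by 0.23 in MI (exact adjusted p = 0.023). Myom3 relative to Myom1 rose by 0.63 in MI (exact adjusted p = 0.023; 0.051 without MI 2 or MI 4). Tnni1 relative to Tnni3 rose by 3.32 in MI (exact adjusted p = 0.023). That ratio rested on Tnni1 values near 0, to which 0.01 FPKM was added; with 0.1 FPKM added the difference was 1.92 (0.026), and without MI 4 it was 2.77 (0.039). Tnni1 reached at most 0.196% of Tnni3, in MI 4. Without MI 4 and MI 5 together, which leaves 210 regroupings, 3 of these 8 ratios passed (Tpm3 to Tpm1, Pdlim3 to Pdlim5 and Tmod4 to Tmod1, exact adjusted p = 0.040 each).

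The other 6 ratios did not pass between MI and control. They were Tnnt1 to Tnnt2, Mybpc2 to Mybpc3, Myoz1 to Myoz2, Neb to Nebl, Myom2 to Myom1 and Fbxo32 to Trim63. Skeletal muscle markers were highest in MI 4, the library that also held the highest Tnnt1, Tnni1, Neb, Myoz1 and Myom3 of any MI library. Of the 15 markers 9 were tested, and 3 were called higher in MI and 1 lower. This is 33.3% and 11.1%, beside 40.1% and 3.21% of all genes tested. None of the 15 was at 0 in every library of a group. Their part in the ratios that hold Tnnt1, Tnni1, Neb, Myoz1 or Myom3 was not tested beyond leaving MI 4 out.

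**Figure D4:**
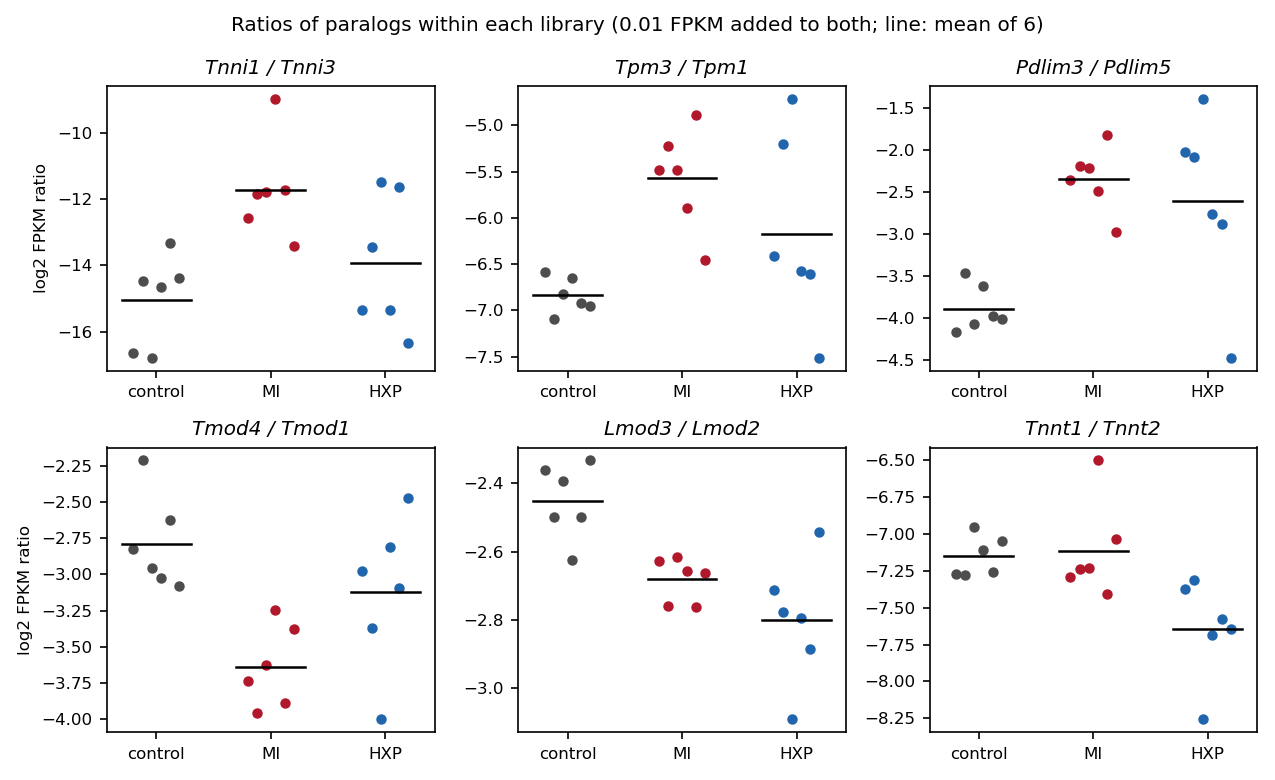
Log2 ratio of FPKM between paralogs within each library, with 0.01 FPKM added to both, for 6 of the 14 pairs by group, with a line at the mean of 6. MI lies above control for Tpm3 to Tpm1 and Pdlim3 to Pdlim5 and below it for Tmod4 to Tmod1; HXP lies lowest for Tnnt1 to Tnnt2, where the exact adjusted p against MI is 0.036.

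The comparison of HXP with MI asks whether the hearts labelled HXP differ from those labelled MI. No member was called by limma, and of all genes tested 0% were called; 5 members and 1891 of all genes had an unadjusted p below 0.05. No member was called in this comparison under any of the other settings tried. The 4 members with the smallest p were Lmod2, Obsl1, Myom3 and Pdlim5. Lmod2 ranged from 226 to 305 FPKM in MI with a median of 239, and from 263 to 386 in HXP with a median of 345; the groups overlapped, and the log2 fold change was 0.36 (limma SE 0.12, adjusted p = 0.260). Obsl1 ranged from 8.77 to 11.3 FPKM in MI and from 2.97 to 10.9 in HXP, with a log2 fold change of -0.59 (limma SE 0.21, adjusted p = 0.289). Its low values, 3.99 and 2.97 FPKM, were those of HXP 5 and HXP 6. Myom3 and Pdlim5 had log2 fold changes of -0.21 (limma SE 0.09, adjusted p = 0.321) and -0.31 (limma SE 0.14, adjusted p = 0.347). No member separated the HXP from the MI libraries without overlap (of all genes, 0.117% above and 0.306% below).

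The 10 members called in MI took a wide range of values across HXP. In HXP 2 all 7 genes called higher lay above the highest control and all 3 called lower lay below the lowest control, as in MI 1 to MI 5. HXP 3 had 6 of 7 above and 3 of 3 below. HXP 1 had 5 of 7 above and 0 of 3 below, HXP 5 had 4 and 2, HXP 4 had 2 and 1, and HXP 6 had 0 and 1. MI 6 had 4 and 2. The 10 genes were chosen by the comparison of MI with control, so the MI counts largely follow from that choice. The HXP counts use the same control libraries. The share of all genes outside the control range in each library is not given here, so these counts are not set against a background. The level of Col1a1, a collagen gene of fibroblasts, was 345 and 186 FPKM in HXP 3 and HXP 2, 185 in HXP 1, 50.7 and 41.3 in HXP 4 and HXP 5, and 2.29 in HXP 6. In MI it was 74.1 FPKM in MI 6 and at least 188 in the others, and in control it did not exceed 16.7 FPKM. Its part in the spread of the 10 members was not tested.

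Spread within groups was larger in HXP than in control for most members. The median standard deviation of the 36 members on the log2 scale was 0.159 in control, 0.217 in MI and 0.322 in HXP, and it was above that of control for 32 of 36 members in HXP and for 27 of 36 in MI. Over all genes tested the medians were 0.128, 0.206 and 0.319. By role, with Tnni1, Neb and Myoz1 below the filter included, the HXP value was highest for the troponins and tropomyosins, at a median of 0.392. It was lowest for the ligases and Alpk3, at 0.204. The gene with the widest spread in HXP was Pdlim3, with a standard deviation of 1.05, and the narrowest was Fbxo32, with 0.0991.

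The comparison of HXP with control shares its control libraries with the comparison of MI with control. No member was called by limma, against 0.314% of all genes tested (0.0948% higher and 0.219% lower); 8 members and 4541 of all genes had an unadjusted p below 0.05. Tcap had a log2 fold change of -0.93 (limma SE 0.26, adjusted p = 0.088), beside -0.49 in MI, and Pdlim3 of 1.26 (limma SE 0.37, adjusted p = 0.088), beside 1.70 in MI. Myom2 had 0.41 (limma SE 0.13, adjusted p = 0.093), beside 0.20 in MI, and Ldb3 had -0.25 (limma SE 0.08, adjusted p = 0.097), beside -0.10 in MI. Whether the effects in HXP and MI differ is the comparison of HXP with MI given above, in which none passed.

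The count of 0 depended on settings. Pdlim3 was called higher and Tcap lower after quantile normalization, scaling to non-mitochondrial FPKM and median-ratio scaling, and Obsl1 lower after the first and last of these. Without HXP 1, Tcap was called lower. Without HXP 6, 6 members were called (Mybpc2, Myom2, Pdlim3, Synpo2l and Tpm3 higher, Tcap lower). Without both HXP 5 and HXP 6, 7 were called, all higher (Flnc, Mybpc2, Myom2, Pdlim3, Synpo2l, Tpm2 and Tpm3), while 5603 of all genes were then called higher and 364 lower. With GC correction on the same libraries the split turned to 3 higher (Pdlim3, Synpo2l and Tpm3) and 8 lower (Fbxo32, Ldb3, Lmod3, Tcap, Tmod1, Tmod4, Tnnt1 and Trim63). Without the correction, Pdlim3 had a log2 fold change of 1.74 (limma SE 0.30, adjusted p = 0.0068) and Flnc of 0.41 (limma SE 0.11, adjusted p = 0.014). Apart from the uncorrected fit without HXP 5 and HXP 6, the share of all genes called is not given for these settings.

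HXP 5 and HXP 6 differed from control by GC content. Across the 5628 genes averaging 5 FPKM or more, the Spearman correlation between the GC content of a gene's transcripts and its difference from the control mean was -0.39 in HXP 5 and -0.61 in HXP 6. In the other 16 libraries it lay between -0.13 and 0.26. Across the 36 members it was -0.49 and -0.58. These are descriptions across genes of 1 library each. The members with the highest GC content, Obsl1 (61.4%) and Tcap (61.3%), were also those lowest against control in HXP 6, by -1.32 and -1.57 on the log2 scale. In HXP 5 they stood at -0.99 and -1.47. Tcap was also low in HXP 3 and HXP 2, at 379 and 549 FPKM against at least 873 FPKM in control. The Spearman correlation with GC content was 0.02 in HXP 3 and 0.01 in HXP 2. With GC correction the Tcap log2 fold change in HXP against control moved from -0.93 to -0.74 (limma adjusted p = 0.051). The part of GC content in the Tcap values was not tested. After GC correction, 2 members were called in HXP against control, Pdlim3 and Synpo2l, both higher.

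**Figure D5:**
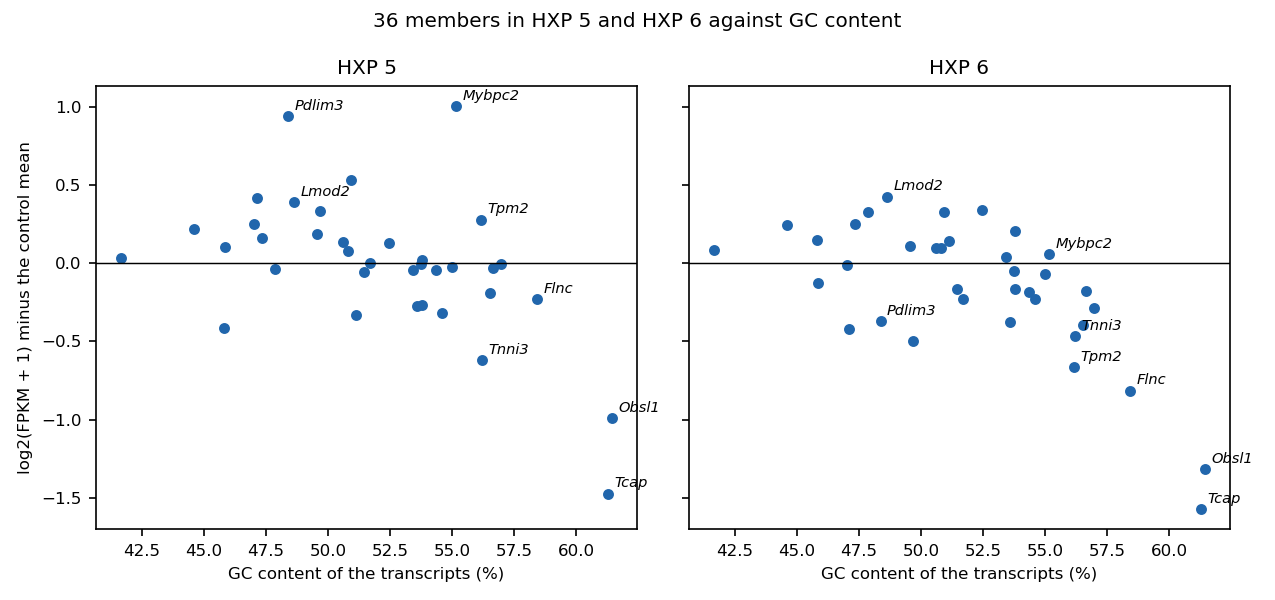
Difference from the control mean on the log2(FPKM + 1) scale (vertical axis) against the GC content of the transcripts in percent (horizontal axis) for the 36 tested members in HXP 5 and in HXP 6. Obsl1 and Tcap, at 61.4% and 61.3% GC, lie lowest in both libraries.

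Of the paralog ratios, 1 of 14 passed between HXP and MI and 2 of 14 between HXP and control. Tnnt1 stood at a median of 0.688% of Tnnt2 in control, 0.663% in MI and 0.510% in HXP. The log2 ratio was -0.53 in HXP against MI (exact adjusted p = 0.036) and -0.49 in HXP against control (exact adjusted p = 0.023), from 262 to 968 recovered reads of Tnnt1 per library. All 6 HXP libraries lay below all 6 control libraries in this ratio. By contrast, no single member separated HXP from control without overlap (background 1.13% above and 0.569% below). The difference from MI did not pass when MI 1, MI 2, MI 3, MI 4 or HXP 3 was left out (exact adjusted p of up to 0.083) or without HXP 5 and HXP 6 (0.071), whereas the difference from control passed in all 18 fits that left out 1 library. Lmod3 relative to Lmod2 was lower in HXP than in control by -0.35 (exact adjusted p = 0.023), as it was in MI by -0.23; between HXP and MI it differed by -0.12 (exact adjusted p = 0.296). Among the 50 other sarcomere genes tested, none was called in either HXP comparison by limma, with 9 at an unadjusted p below 0.05 in each.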

How the data were processed

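For every library the authors deposited 1 table of FPKM values by Ensembl gene ID, normalized to exon length and library depth before deposit; the file headers do not name the unit. It was inferred: multiplied by exon length, 97.7% to 98.1% of the 9031 to 11027 values checked in a library came within 0.1 of a whole multiple of a single step. The submitters' processing notes name GRCm38 and limma. Aligner, counter and annotation: not given in the sources used here. Of the 34150 IDs, 34097 were found in GENCODE M21 and 53 were not. Exon overlaps with other genes were counted there, since the labels' protocols do not describe the kit as keeping strand.

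The 13710 genes averaging 0.5 FPKM or more were analysed as log2(FPKM + 1) in 1 limma fit (limma 3.58.1 in R 4.3.3, with a trend and no robust prior) with 3 groups, so that the error is pooled over the groups and holds the wide spread of HXP. Fold changes are on this scale and understate changes near 1 FPKM; tests were two-sided with Benjamini-Hochberg adjustment, called below 0.05. The recovered reads were used for depth, mitochondrial shares, the comparison of library pairs and the read counts quoted. No count test of the genes was run. Paralog ratios used FPKM + 0.01 and an exact permutation test in Python 3.11.15. Depth was similar in all libraries, so the spread between libraries set precision except for the lowest values. The fit was tested on simulated normal values with 1 spread per gene shared by all groups. That simulation does not cover the wider spread of HXP.

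Every member is named; ranges are given in full for members called in MI against control and the 4 nearest to a call in HXP against MI, and up to 6 other sarcomere genes in order of p. Members, gene lists, marker lists and settings were chosen with earlier results of these data known. Chosen after seeing the data, in addition, were GC correction (lowess, span 0.3), the run of 10 libraries alone and leaving out HXP 5 and HXP 6. Flnc, Tcap and the other examples outside the rule were chosen after their values were seen. No library was left out of the values given first.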

Additional observations from a re-analysis of the deposited data

Results flagged for a closer look

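In each of the 117 groups of 6 libraries (39 genes, 3 groups), the gap of the highest or lowest library to its nearest neighbour was divided by the range of the group, and 10 groups exceeded 0.625, the 95% critical value of Dixon's test for 6 values; chance gives about 1 in 20. MI 4 stood highest in Tnni1 (1.79 FPKM, next 0.218, a gap of 0.877 of the range), in Myoz1 (1.08, next 0.341, 0.693) and in Cryab (339.7, next 287, 0.766). MI 4 is the library with skeletal muscle markers, whose part in these values was not tested. MI 6 stood lowest in Tpm2 (5.82 FPKM against at least 12.8, 0.733), Pdlim3 (3.79 against at least 8.67, 0.639) and Pdlim5 (29.9 against at least 40.8, 0.631), and it also held the lowest fibroblast and matrix markers of the MI libraries, at 438 FPKM. The part of these markers in the MI 6 values was not tested.

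Among the control libraries, control 2 stood highest in Lmod3 (59.9 FPKM against at most 51.8, 0.826), control 3 in Myoz1 (0.254 against at most 0.0946, 0.683) and control 5 in Tcap (1508 against at most 1063, 0.640). Control 6 stood lowest in Tpm2 (3.34 FPKM against at least 5.66, 0.639).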

How the results depend on the processing

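The 10 members called in MI against control became 0 without MI 4 and MI 5, 0 in the run of 10 libraries alone and 16 with GC correction without HXP 5 and HXP 6, and lay between 7 and 12 when 1 library was left out; the other settings gave 7 to 15. The 3 lower calls fell to 1 with the run of library numbers as a covariate, with MI 1 and MI 2 averaged (8 called in each) and with no filter on low values (7 called). Myom3 changed sign after quantile normalization (log2 fold change -0.020) and GC correction with all libraries (-0.028) or without HXP 5 and HXP 6 (-0.028); the cause was not tested. The 0 members called in HXP against control became 3 after quantile normalization, 2 after scaling to non-mitochondrial FPKM, 3 after median-ratio scaling, 2 after GC correction, 7 without HXP 5 and HXP 6, 11 with both (3 higher and 8 lower), and 0 to 6 when 1 library was left out. Other sarcomere genes called were 9 to 21 in MI against control (16 with all libraries) and 0 to 8 in HXP against control when 1 library was left out, and in HXP against control 4, 5 and 6 after quantile, non-mitochondrial and median-ratio scaling. Paralog ratios that passed were 3 in MI against control (from 8) and 0 in HXP against MI (from 1) without MI 4 and MI 5, and 0 in HXP against MI and 4 in HXP against control (from 2) without HXP 5 and HXP 6. When 1 library was left out they were 0 to 4 in HXP against MI, 2 to 4 in HXP against control and 6 to 10 in MI against control. With the replicate number as a block (64 sign changes, adjusted p of at least 0.094 in an exact test) 0 ratios passed in each comparison, and 11 members were called in MI against control. Nothing shows that the numbers pair mice: correlations of same-numbered libraries ran from -0.31 to 0.63, above 0.1 in 5 of 18 pairs, and 2 of 18 matched their own number best. Of the members' fold changes under all settings, 3537 kept their side of the threshold, 168 of them with a change of sign while not called in either fit, 73 gained the call and 53 lost it. Of the ratios, 876 kept their side of the threshold, 15 gained and 33 lost the call. The gene counts in this paragraph are not set against the share of all genes called under each setting.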
